A study of Saccharomyces cerevisiae with 16 samples.

Results

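The genes described here encode the proteins of the small (40S) subunit of the budding yeast ribosome. They were taken by name from the rows of annotated coding transcripts (ORF-T rows) as every RPS gene other than the paralogs of RPS14 and RPS22, which gave 52 genes of the 5836 ORF-T rows and of 12670 rows in all. Of the 52 genes, 44 formed 22 pairs of paralogs (an A copy and a B copy) and 8 were single-copy genes. All 52 matched the RefSeq annotation of Saccharomyces cerevisiae, and all were counted in every library.

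Counts from 11 strand-specific total RNA libraries were used, in 3 genotypes of the BY4741 background. The 4 wild-type (WT) libraries carried neither deletion. The rrp6Δ strain, a member of the knockout collection, lacked RRP6, whose product trims RNA from the 3′ end as part of the nuclear exosome, and its replicates 1, 3 and 4 were used. In the 4 libraries of rtr1Δ rrp6Δ cells, the same RRP6 deletion was joined by a deletion of RTR1, whose product removes phosphates from the C-terminal domain of RNA polymerase II, made with a kanamycin cassette. Each genotype was 1 strain, grown from single colonies and harvested at an OD600 of 0.8. The study's methods place all genotypes of 1 experiment on the same day and further replicates on other days, so the replicate number was read as the growth day. RRP6 had 3605 to 5503 counts in WT libraries, but 10 to 13 in rrp6Δ libraries and 8 to 22 where both genes were deleted. For RTR1 the WT libraries held 548 to 762 counts, rrp6Δ libraries 417 to 575 and the rtr1Δ rrp6Δ libraries 35 to 56. Library totals ran from 28765694 to 38578463 counts.

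The small subunit binds messenger RNA and reads its codons against transfer RNA. Each of its proteins is made in step with the others, and in yeast most are encoded by duplicated genes left from an ancient genome duplication, many of them with an intron. Transcription of ribosomal protein genes rests on Rap1, Fhl1 and Ifh1 at their promoters and is tied through the TOR pathway to nutrients and growth rate, so the genes are known for rising and falling together.

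Promoter letters that Rap1 is known to bind are shown first, since they mark the best-known regulator of these genes. Capitals mark the letters CCNTACA, each site is read 5′ to 3′ on the strand of the gene, and coordinates are those of RefSeq assembly R64, equal to the sacCer3 build of the files.
RPS7B (chrXIV:444599-444621, minus strand): ctttaaatCCGTACAttattgtt
RPS9B (chrII:604281-604303, plus strand): gatttaatCCGTACAtttacaca
RPS21B (chrX:157599-157621, minus strand): gtttacacCCGTACActttatac
RPS27B (chrVIII:149090-149112, minus strand): tatttagcCCATACAttttcacc
These letters, searched on both strands, occurred within 600 bases before the start codon in 30 of 52 members (57.7%) and in 19.2% of 5585 genes, at a median distance of 323 bases from the start codon. The sites shown are all from B copies, but RPS7A and RPS21A held the letters in that window too. The same letters occurred in 54 of 81 genes for large subunit proteins (RPL genes). In the window first chosen, from 250 bases before the start codon to 50 bases after it, they occurred in 9 of 52 members and in 8.85% of genes. The letters and the longer window were picked after those counts were seen, among 15 patterns tabulated in 2 windows, 10 of them for Rap1, with 1 more tried and not tabulated. The letters of Abf1 (TCA and ACG, spaced by 6 bases of any kind) were in 14 members (26.4% of genes) and TTACCCG of Reb1 was in 2 members (11.5% of genes) in the 600-base window. Members with and without CCNTACA in that window had median log2 changes of −0.25 and −0.28 in rrp6Δ cells against WT. A match describes the letters only.

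Of the 52 members, 33 held 1 intron of 256 to 551 bases and 19 held none. The letters GTATGT stood at the start of 22 of the 33 introns (66.7%, against 75.6% of 262 introns of all genes in the table), and the branch letters TACTAAC stood in 30 of 33 (90.9%, against 82.8%). The 3 members without TACTAAC were RPS9A, RPS9B and RPS21A. They belong to pairs whose copies shifted against each other in the results below, and the sequences were looked up after those values were seen. The RPS7, RPS10 and RPS27 pairs shifted too, with TACTAAC in both copies, and so did RPS26, which has no intron. Both RPS9 copies lack the letters, with CACTAAC in RPS9A and GACTAAC in RPS9B. The part of such letters in the shifts was not tested. The 5′ splice sites follow, with the first bases of the intron in capitals.
RPS9A (chrXVI:404951-404968, plus strand): tgccaaGTACGTcgttaa
RPS9B (chrII:604509-604526, plus strand): tgccaaGTACGTattaga
RPS21A (chrXI:551675-551692, plus strand): caattaGTATGTtcgaga
RPS21B (chrX:157238-157255, minus strand): caattaGTACGTaaatta
The branch letters of the same introns are in capitals here.
RPS9A (chrXVI:405418-405436, plus strand): agcgctCACTAACaatggt
RPS9B (chrII:604885-604903, plus strand): acttttGACTAACaagaat
RPS21A (chrXI:551970-551988, plus strand): tagcatAACTAACaaagat
RPS21B (chrX:156809-156827, minus strand): caaatgTACTAACattgaa
Splicing itself was not measured here, since the table gives 1 count per transcript.

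Levels were read as CPM, counts relative to the scaled library size, and between genes as CPM per kilobase of coding length. In WT cells the members had a median of 2417 CPM per kilobase, against 38.8 over 5585 ORF-T rows with a coding length, and 50 of 52 lay above the 95th percentile of those rows. RPS31, whose product is made as a fusion of ubiquitin to a ribosomal protein, was highest at 10509 ± 1926 CPM per kilobase (SD, n = 4). RPS20, for a protein of the subunit head, followed at 6559 ± 321 and RPS30A at 5383 ± 804 CPM per kilobase. RPS9A was lowest at 296 ± 30.8, below RPS28B at 421 ± 141 and RPS29B at 859 ± 130 CPM per kilobase (SD, n = 4). Each of these 3 genes was the smaller copy of its pair. The highest level was 35.5 times the lowest, but in the order of levels 49 of 51 neighbouring genes overlapped in their WT libraries. The lowest count of any member in any library was 1603, so counting error was small beside the spread of cultures.

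In rrp6Δ cells nearly all members stood a little below WT when counts were scaled over all rows of the table. The log2 change was negative for 51 of 52 members, with a median of −0.27, and none passed 1.5-fold. At an adjusted p of at most 0.05 (edgeR quasi-likelihood test, Benjamini-Hochberg over all rows), 8 members were lower and 0 higher. Of all rows 24.7% were called lower in this comparison, and 42.5% of the ORF-T rows, so 8 of 52 was below both shares. The median of all rows was −0.02 and that of the ORF-T rows −0.29.

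The direction of the members as a group depended on the scaling. When the scaling factors (TMM, trimmed mean of M values) were taken from the ORF-T rows alone, the median of the members was 0.03, with 37 positive and 15 negative changes, and 0 members were called in either direction, with 0 at an unadjusted p of at most 0.05 in edgeR. That scaling moved the median of all rows to 0.28. ORF-T rows took 78.1% to 81.4% of all counts in the WT libraries, while the rrp6Δ libraries gave 72.1% to 74.5% and the rtr1Δ rrp6Δ libraries 72.8% to 75.0%. The members took 6.44%, 6.19%, 6.14% and 5.28% of all counts in WT replicates 1 to 4, and 5.75%, 5.85% and 5.54% in rrp6Δ replicates 1, 3 and 4. As a share of ORF-T counts alone, the same libraries gave 8.10%, 7.60%, 7.86% and 6.66% in WT and 7.82%, 8.11% and 7.44% in rrp6Δ. Both shares overlapped between these genotypes, and the mean share of ORF-T counts was 7.55% ± 0.63 in WT (SD, n = 4) and 7.79% ± 0.33 in rrp6Δ (SD, n = 3). In such bulk cultures less RNA per cell and fewer cells with the RNA cannot be told apart.

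**Figure D1:**
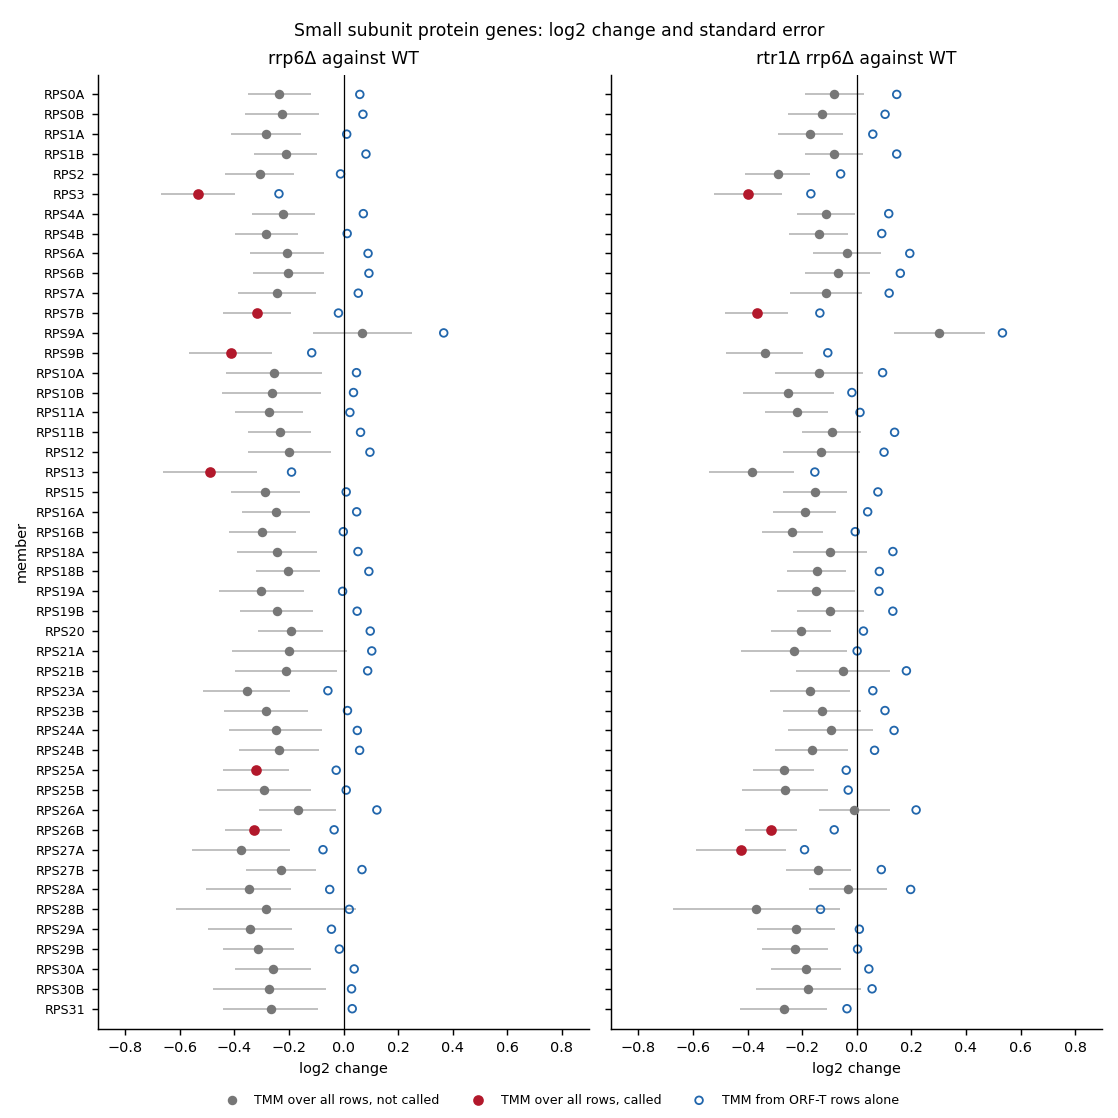
Log2 change of 47 of the members in rrp6Δ (left) and rtr1Δ rrp6Δ cells (right) against WT, with bars of 1 standard error, scaled over all rows (filled points, red for a call at adjusted p of 0.05 or less) or from ORF-T rows alone (open circles, no error drawn). Filled points lie below 0 for 46 of the 47 in each panel, RPS9A being the exception, and under the other scaling 33 and 34 lie above 0.

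Among the 8 members called lower in rrp6Δ cells were RPS3, RPS13, RPS9B, RPS26B, RPS25A and RPS7B. RPS3 (YNL178W), whose product lines the entry of the mRNA channel, fell most. It was at 3251, 2965, 2922 and 2389 CPM in WT replicates 1 to 4 and at 1914, 2061 and 2006 CPM in rrp6Δ replicates 1, 3 and 4. The genotypes did not overlap, and the log2 change was −0.53 ± 0.14 (SE, edgeR adjusted p = 0.0048). Scaled from ORF-T rows, RPS3 was still the lowest at −0.24, without a call (edgeR adjusted p = 0.153). Its edgeR or DESeq2 adjusted p ran from 3.85e-06 to 0.177 over the settings tried, other than block fits without 1 library.

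RPS13 (YDR064W), for a protein at the subunit interface, was at 1537, 1356, 1189 and 987 CPM in WT and at 953, 893 and 863 CPM in rrp6Δ cells. WT replicate 4 lay close above all 3 rrp6Δ libraries, and the log2 change was −0.49 ± 0.17 (edgeR adjusted p = 0.0258). RPS9B (YBR189W), the larger copy of the gene for Rps9, which acts in decoding fidelity, was at 2171, 2004, 1755 and 1432 CPM in WT and at 1399, 1389 and 1357 CPM in rrp6Δ cells, a log2 change of −0.41 ± 0.15 (edgeR adjusted p = 0.0328). RPS26B (YER131W), for a protein at the mRNA exit, was at 1020, 902, 848 and 842 CPM in WT and at 676, 713 and 767 CPM in rrp6Δ cells. Here too the genotypes did not overlap (log2 change −0.33 ± 0.10, edgeR adjusted p = 0.0149). RPS25A and RPS7B each changed by −0.32 on the log2 scale.

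At the other end stood RPS9A, RPS26A, RPS20 and RPS21A. RPS9A (YPL081W) was the only member with a positive change, of 0.07 ± 0.18 (edgeR adjusted p = 0.756). It was at 203, 163, 169 and 169 CPM in WT and at 230, 167 and 156 CPM in rrp6Δ cells, so that only replicate 1 lay above all WT libraries. RPS26A was at 1714, 1942, 1991 and 1654 CPM in WT and at 1270, 1877 and 1727 CPM in rrp6Δ cells, where replicate 1 was lowest (log2 change −0.17 ± 0.14). RPS20 was at 2439, 2304, 2550 and 2309 CPM in WT and at 1773, 2289 and 2233 CPM in rrp6Δ cells (log2 change −0.19 ± 0.12). RPS21A was at 723, 529, 524 and 403 CPM in WT and at 520, 478 and 427 CPM in rrp6Δ cells, inside the WT range (log2 change −0.20 ± 0.21).

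The single-copy genes have no paralog. Their median change in rrp6Δ cells was −0.29, with 3 of 8 called lower (RPS3 and RPS13 among them), against −0.26 for the paired genes with 5 of 44 called. The ORF-T rows had a median of −0.29, with 42.5% called lower. RPS2, for a protein at the mRNA entry, was at 2620 to 3664 CPM in WT and 2452 to 2589 CPM in rrp6Δ cells (log2 change −0.31 ± 0.13, edgeR adjusted p = 0.0522). RPS12, RPS15 and RPS31 changed by −0.20, −0.29 and −0.27 on the log2 scale without a call. With the replicate number as a block, RPS2, RPS15, RPS20 and RPS31 were called lower (edgeR adjusted p of 0.0328, 0.0333, 0.0449 and 0.0354) and RPS12 was not. Members with and without an intron had medians of −0.25 and −0.29.

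Same-day differences showed how uneven the fall was. In replicate 1 the median member was lower in rrp6Δ than in WT by a log2 difference of −0.49, with 51 of 52 members lower. In replicate 3 the median was −0.20, with 52 lower, and in replicate 4 it was −0.002, with 28 lower. The median of the ORF-T rows in the same pairs was −0.36, −0.27 and −0.24. The members therefore lay below the ORF-T median in replicate 1 and above it in replicates 3 and 4.

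With the replicate number as a block in the fit, more members passed. The block left the median at −0.26 and called 38 of 52 members lower in rrp6Δ cells. In that fit 38.9% of all rows were called lower, and 3976 of 5836 ORF-T rows. Scaling by relative log expression (RLE) called 39 members lower, against 34.8% of all rows and 3518 of 5836 ORF-T rows. Upper-quartile scaling called 0, with 1 at an unadjusted p of at most 0.05. The count without the block also hung on single libraries. It was 43 without WT replicate 4, the lowest WT library, 40 without rtr1Δ rrp6Δ replicate 1, which is in neither group compared, 16 without rrp6Δ replicate 3, and 2 to 6 without any other library. With the block it was 12 without rrp6Δ replicate 1, 15 without WT replicate 1, 20 to 24 without WT replicates 2 or 3, rrp6Δ replicate 3 or rtr1Δ rrp6Δ replicates 2, 3 or 4, and 50 or 51 without WT replicate 4, rrp6Δ replicate 4 or rtr1Δ rrp6Δ replicate 1.

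The members were spread over libraries as a body. In WT, 48 of 52 members were highest in replicate 1 and 50 of 52 were lowest in replicate 4, where the median deviations from the WT mean were 0.21 and −0.27 in log2 CPM. In rtr1Δ rrp6Δ cells, 45 members were highest in replicate 1 (median deviation 0.25) and 35 lowest in replicate 4 (−0.15). The rrp6Δ libraries differed less, with medians of 0.02, 0.01 and −0.02. The median SD of a member was 0.22 in WT, 0.08 in rrp6Δ and 0.20 in rtr1Δ rrp6Δ cells.

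**Figure D2:**
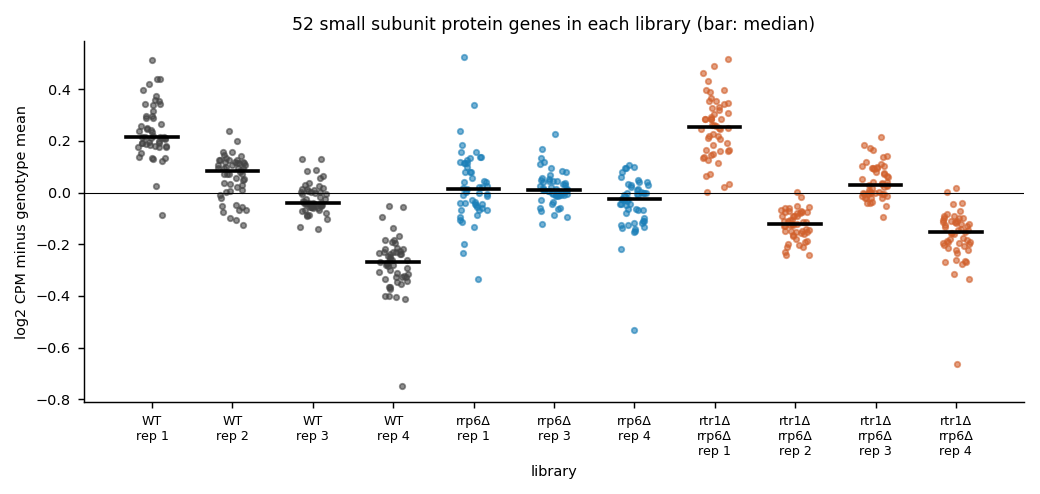
Log2 CPM of each of the 52 members (points) minus its genotype mean, by library, with the median as a bar. WT replicate 1 and rtr1Δ rrp6Δ replicate 1 lie high at 0.21 and 0.25, WT replicate 4 lies low at −0.27, and rrp6Δ libraries lie near 0.

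In rtr1Δ rrp6Δ cells the members again stood slightly below WT under the scaling over all rows. The log2 change was negative for 51 of 52, with a median of −0.17, and 4 members were called lower and 0 higher (edgeR). Of all rows 21.2% were called lower, and 34.2% of the ORF-T rows. From ORF-T rows the median was 0.06, with 38 positive changes, and the only call was RPS9A, higher. The members took 6.18%, 5.44%, 5.88% and 5.27% of all counts and 8.39%, 7.25%, 8.07% and 7.09% of ORF-T counts in replicates 1 to 4, ranges that overlapped those of WT.

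The called members were RPS27A, RPS3, RPS7B and RPS26B. RPS27A (YKL156W), the smaller copy for a zinc-binding protein of the platform side, was at 457, 369, 351 and 286 CPM in WT and at 344, 258, 265 and 223 CPM in rtr1Δ rrp6Δ cells. These ranges overlapped, though every culture was below the WT culture of its day, and the log2 change was −0.42 ± 0.17 (edgeR adjusted p = 0.0442). RPS3 was at 2584, 1935, 2290 and 1941 CPM, of which replicate 1 overlapped WT (log2 change −0.40 ± 0.12, edgeR adjusted p = 0.016). RPS7B was at 609, 516, 499 and 440 CPM in WT and at 438, 352, 439 and 372 CPM in rtr1Δ rrp6Δ cells, with no overlap (log2 change −0.37 ± 0.11, edgeR adjusted p = 0.016). RPS26B, at 761, 693, 774 and 677 CPM, did not overlap WT either (log2 change −0.31 ± 0.09, edgeR adjusted p = 0.0135). RPS13, at 1233, 887, 970 and 791 CPM, missed the threshold (log2 change −0.39 ± 0.16, edgeR adjusted p = 0.0528) and was called with the replicate block (edgeR adjusted p = 0.00267).

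RPS9A was again apart, at 281, 190, 229 and 169 CPM in rtr1Δ rrp6Δ replicates 1 to 4. Replicates 1, 2 and 3 lay above the WT library of the same day and replicate 4 was at its level. Its log2 change was 0.30 ± 0.17 (edgeR adjusted p = 0.14). With the replicate block it was called higher, at 0.28 (edgeR adjusted p = 0.00523), the only such member. In that fit 40.5% of all rows were called higher, and 525 of 5836 ORF-T rows. Scaled from ORF-T rows, RPS9A was called at 0.53 (edgeR adjusted p = 0.0173). Over the settings tried, other than block fits without 1 library, its edgeR or DESeq2 adjusted p ran from 0.000133 to 0.441. RPS28A, RPS26A and RPS6A were the next least changed, at −0.03, −0.01 and −0.03 on the log2 scale. RPS28B (YLR264W), the smaller copy for Rps28, whose product is known to limit the amount of its own mRNA, was at 117, 96.6, 81.5 and 48.7 CPM in WT and at 91.3, 60.7, 74.1 and 40.3 CPM in rtr1Δ rrp6Δ cells. Its spread was the widest (log2 change −0.37 ± 0.31, edgeR adjusted p = 0.321), and each library was below its WT partner, so that the block called it (edgeR adjusted p = 0.00118). Over the same settings as for RPS9A, its edgeR or DESeq2 adjusted p ran from 9.43e-05 to 0.768.

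The replicate block called 19 members lower in rtr1Δ rrp6Δ cells, with the median at −0.17. In that fit 36.3% of all rows were called lower, and 3533 of 5836 ORF-T rows. RLE scaling called 22 members lower, against 32.3% of all rows and 3102 of 5836 ORF-T rows. Upper-quartile scaling called 0, with 1 at an unadjusted p of at most 0.05. Without rtr1Δ rrp6Δ replicate 1 the count was 29, without WT replicate 4 it was 21, without rrp6Δ replicate 3 it was 9, and without rtr1Δ rrp6Δ replicates 2 or 4 it was 1 or 2. With the block it was 47 without rtr1Δ rrp6Δ replicate 1, 35 without WT replicate 4, 7 or 8 without WT replicates 1 or 2 or rtr1Δ rrp6Δ replicate 2, and 12 without rtr1Δ rrp6Δ replicate 4. The same-day medians were −0.16, −0.35, −0.10 and −0.05 in replicates 1 to 4, with 47, 51, 48 and 31 members below WT. The ORF-T rows had medians of −0.26, −0.23, −0.20 and −0.19 in those pairs.

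Between rtr1Δ rrp6Δ and rrp6Δ cells, which asks what loss of RTR1 adds where RRP6 is gone, no member was called. The median log2 change was 0.10, with 46 positive and 6 negative, 0 members passed an unadjusted p of 0.05 in edgeR, and DESeq2 also called 0. Scaled from ORF-T rows, the members had a median of 0.03, with 37 positive and 15 negative. Under the scaling over all rows the ORF-T rows leaned the same way, with a median of 0.06 and 3990 of 5836 positive. So did the RPL genes, with a median of 0.12 and 75 of 81 positive. Of all rows 0.947% were called in either direction. The block called 0 as well, with 2 members at an unadjusted p of at most 0.05, where 9.79% of all rows were called, and it called 1 member higher without WT replicate 1 or without rtr1Δ rrp6Δ replicate 4. The median was 0.02 without rtr1Δ rrp6Δ replicate 1 and also without every replicate 1. RPS28A had the largest change, 0.31 ± 0.16 (edgeR adjusted p = 0.484). It was at 378, 383 and 377 CPM in rrp6Δ and at 608, 428, 466 and 386 CPM in rtr1Δ rrp6Δ cells, just clear of each other. RPS9A at 0.23, RPS23A at 0.18 and RPS6A at 0.17 followed, and RPS28B at −0.08, RPS7B at −0.05, RPS27A at −0.05 and RPS21A at −0.03 were lowest.

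Copies of a pair were compared through the log2 ratio of their counts within a library, which needs no scaling. Coding sequences of the copies were 84.3% to 99.2% identical. In 9 pairs identity was at least 95%, and in 4 the copies shared a stretch of 100 bases or more (among them RPS6 with 311, RPS24 with 152 and RPS4 with 158 bases), so reads of these pairs may have been divided uncertainly, and how reads with several matches were handled is not given in the sources used here. The RPS9, RPS26, RPS27, RPS28, RPS7 and RPS21 pairs that the results turn on were 84.3% to 92.2% identical. In WT the A copy held more counts in 13 pairs and the B copy in 9, and the larger copy was the same in all 11 libraries for 19 of 22 pairs. The 3 most unequal pairs were RPS9, with 8.86% of counts from A, RPS28, with 85.2% from A, and RPS7, with 73.7% from A.

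RPS9 shifted most. The log2 ratio of RPS9A to RPS9B was −3.42, −3.62, −3.38 and −3.08 in WT, −2.61, −3.05 and −3.12 in rrp6Δ, and −2.66, −2.83, −2.66 and −2.90 in rtr1Δ rrp6Δ cells. Every rtr1Δ rrp6Δ library lay above every WT library, while rrp6Δ replicate 4 lay at the level of WT replicate 4. The mean ratio rose by 0.61 in rtr1Δ rrp6Δ cells (exact permutation test over libraries, two-sided, p = 0.0286, the smallest that 4 against 4 libraries allow). In rrp6Δ cells it was 0.45 higher (exact permutation p = 0.114, where 0.0571 is the smallest p of 4 against 3 libraries, so that no pair can pass 0.05). A copy counts made up 7.52% to 10.6% of the pair in WT, while the rrp6Δ libraries held 10.3% to 14.1% and the rtr1Δ rrp6Δ libraries 11.8% to 13.7%.

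The ratio of RPS26A to RPS26B was 0.75, 1.11, 1.23 and 0.97 in WT, 0.91, 1.40 and 1.17 in rrp6Δ, and 1.25, 1.31, 1.41 and 1.31 in rtr1Δ rrp6Δ cells. It was 0.30 higher in rtr1Δ rrp6Δ than in WT cells without overlap (exact permutation p = 0.0286), and 0.14 higher in rrp6Δ (exact permutation p = 0.514). Of the same-day differences, 3 of 3 in rrp6Δ and 4 of 4 in rtr1Δ rrp6Δ cells were positive. The ratio of RPS27A to RPS27B moved the other way. It was −0.92, −0.998, −1.10 and −1.19 in WT, −0.93, −1.28 and −1.38 in rrp6Δ, and −1.24, −1.31, −1.39 and −1.38 in rtr1Δ rrp6Δ cells. That made it 0.28 lower on the log2 scale in rtr1Δ rrp6Δ than in WT (exact permutation p = 0.0286), with 0 of 4 same-day differences positive, and its change in rrp6Δ cells was −0.14 (exact permutation p = 0.286).

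RPS28 had the widest spread of all pairs. The ratio of RPS28A to RPS28B was 2.27, 2.36, 2.52 and 3.04 in WT, 1.96, 2.49 and 3.01 in rrp6Δ, and 2.74, 2.82, 2.65 and 3.26 in rtr1Δ rrp6Δ cells. Replicate 4 was highest in each genotype. The rtr1Δ rrp6Δ mean was 0.32 above WT (exact permutation p = 0.229) and 0.38 above rrp6Δ (exact permutation p = 0.343), with all same-day differences positive in both.

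Only RPS21 had ratios that did not overlap between rtr1Δ rrp6Δ and rrp6Δ cells. The ratio of RPS21A to RPS21B was 0.00, −0.12, −0.04 and −0.16 in WT, −0.10, 0.03 and −0.08 in rrp6Δ, and −0.20, −0.24, −0.25 and −0.34 in rtr1Δ rrp6Δ cells, a mean difference of −0.20 from rrp6Δ (exact permutation p = 0.0571, the smallest possible). RPS7, at 1.45, 1.59, 1.52 and 1.38 in WT, 1.47, 1.65 and 1.56 in rrp6Δ and 1.83, 1.80, 1.69 and 1.64 in rtr1Δ rrp6Δ cells, was 0.18 above rrp6Δ (exact permutation p = 0.114). RPS23 changed by −0.08 in rrp6Δ cells (exact permutation p = 0.457) and RPS9 by 0.16 between the deletion genotypes (exact permutation p = 0.4). These p-values are unadjusted, from 12 tests on pairs that were picked for their change, so they describe the separation of libraries and do not count as evidence for a pair.

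Over all 22 pairs, ratios did not overlap between rrp6Δ and WT in 1, between rtr1Δ rrp6Δ and WT in 6 (RPS7, RPS9, RPS10, RPS21, RPS26 and RPS27) and between the deletion genotypes in 1 (RPS21). The same comparisons over 32 RPL pairs gave 31.2%, 40.6% and 21.9% without overlap, shares above those of the small subunit pairs. The median absolute change of the small subunit pairs was 0.05, 0.08 and 0.06, against 0.10, 0.13 and 0.07 for the RPL pairs. The 2 sets were not chosen alike, since the RPS14 and RPS22 pairs were left out and no RPL pair was. In rrp6Δ cells RPS14B and RPS14A changed by 1.02 and −0.21. What leaving these pairs out did to the median changes was not tested. Even if both were counted as without overlap, the shares would stay below those of the RPL pairs.

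**Figure D3:**
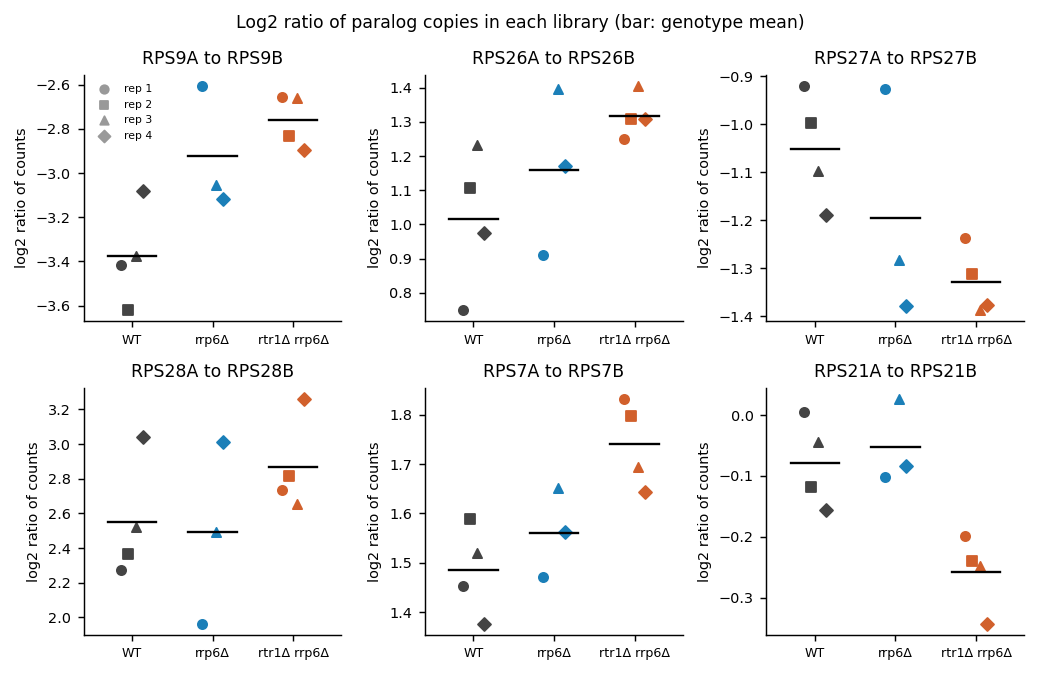
Log2 ratio of the counts of copy A to copy B in each library for 6 pairs, by genotype, with the replicate number as the marker and the genotype mean as a bar (the vertical scale differs between panels). All rtr1Δ rrp6Δ libraries lie above WT for RPS9, RPS26 and RPS7 and below WT for RPS27 and RPS21, while RPS28 overlaps.

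The effect of growth day was asked in the fit with the block, over all genotypes. Members called for any difference between days numbered 20 of 52, beside 43.0% of all rows and 3242 of 5836 ORF-T rows. Compared with the mean of the other days, replicate 1 was higher by a median log2 difference of 0.21 (all rows 0.04, ORF-T rows 0.02). There 26 members were called higher and 0 lower, beside 24.3% of all rows and 1644 of 5836 ORF-T rows called higher. The median stayed at 0.17 when scaled from ORF-T rows, with 21 members called higher and 1 lower, and it was 0.18 with RLE and 0.21 with upper-quartile scaling.

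RPS28B had the largest difference, 0.67 ± 0.07 (edgeR adjusted p = 1.34e-05), and within WT it went from 117 CPM in replicate 1 to 48.7 CPM in replicate 4. RPS21A followed at 0.49 (edgeR adjusted p = 0.000594), RPS30B at 0.48 (edgeR adjusted p = 0.000504) and RPS21B at 0.45 (edgeR adjusted p = 0.000674). RPS30B was at 796, 538, 593 and 468 CPM in WT, at 535, 502 and 451 CPM in rrp6Δ and at 712, 438, 552 and 416 CPM in rtr1Δ rrp6Δ cells, with replicate 1 highest in each genotype. RPS21B was at 720, 575, 540 and 449 CPM in WT, at 558, 469 and 452 CPM in rrp6Δ and at 732, 463, 534 and 479 CPM in rtr1Δ rrp6Δ cells, in the same pattern. RPS26A at −0.18, RPS20 at −0.06, RPS4A at 0.06 and RPS26B at 0.08 were at the low end, none of them called. Ratios of copies varied with day too, with RPS26 lowest in replicate 1 and RPS28 highest in replicate 4 in each genotype.

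The difference was not equal in the 3 genotypes. As given above, replicate 1 stood 0.21 above the genotype mean in WT and 0.25 in rtr1Δ rrp6Δ cells but 0.02 in rrp6Δ cells, and with 1 library per day and genotype an interaction cannot be tested. Without rtr1Δ rrp6Δ replicate 1 the median fell to 0.03, with 8 members called higher and 2 lower, without rrp6Δ replicate 3 it was 0.11 with 10 called higher, without WT replicate 1 it was 0.17 with 14 called higher, and without rrp6Δ replicate 1 it rose to 0.31 with 40 called higher. The test for any difference between days called 8 members without rrp6Δ replicate 3, 10 without rtr1Δ rrp6Δ replicate 1, 11 without WT replicate 1 and 13 without replicate 4 of WT or rtr1Δ rrp6Δ. Among replicates 2 to 4 alone it called 1 member.

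Short genes differed most. The 10 members with coding lengths of at most 300 bases had a median of 0.38 and 9 were called higher. The 21 longer than that and up to 450 bases had 0.21 and 11 called, and the 21 above 450 bases had 0.18 and 6 called. Over ORF-T rows of the same length classes the medians were 0.04, 0.03 and 0.02. Over all lengths 1644 of 5836 ORF-T rows were called higher in replicate 1, and 24.3% of all rows. Members with an intron had a median of 0.25 and those without one 0.17. The genes of other proteins of ribosome production moved with the members between days. Of 20 assembly and export factors of the small subunit, 19 were called higher in replicate 1 with a median of 0.54, and 42 of 81 RPL genes were, with a median of 0.23 and 0 lower. The part of these genes in the members' difference was not tested.

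**Figure D4:**
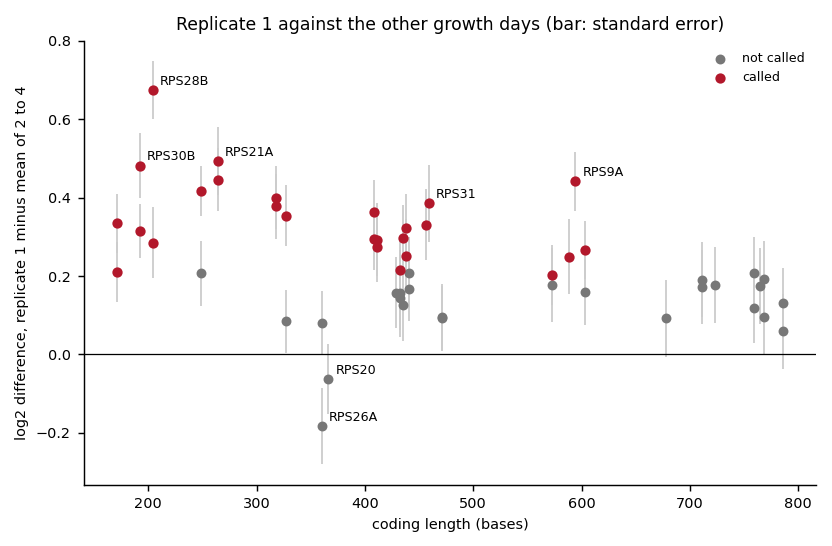
Log2 difference of replicate 1 from the mean of replicates 2 to 4 (with bars of 1 standard error) against coding length in bases for the 52 members, red for a call of higher level. The 10 shortest members have a median of 0.38 and RPS28B lies highest at 0.67, with RPS26A and RPS20 alone below 0.

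Antisense transcripts were tabulated opposite 6 members, among them RPS6B, RPS10A, RPS19A, RPS26A and RPS26B. The study kept antisense rows that changed in rrp6Δ cells, so their direction there is not independent evidence. The rtr1Δ rrp6Δ cells carry the same RRP6 deletion and were compared with the same WT libraries. Their calls and p-values against WT are therefore not independent evidence either. In rrp6Δ cells 4 of the 6 were called higher (54.3% of the 3055 antisense rows were), and in rtr1Δ rrp6Δ cells 5 of 6 were (51.3%). The first count was 5 without WT replicate 2, and the second was 4 with RLE scaling and on leaving out any 1 library other than WT replicate 2, rrp6Δ replicate 1 or rtr1Δ rrp6Δ replicate 4. Between the deletion genotypes 0 of 6 were called in edgeR, beside 1.51% of antisense rows, with 1 at an unadjusted p of at most 0.05 and 0 called by DESeq2.

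The RNA opposite RPS26A was at 0.92, 2.20, 1.63 and 0.59 CPM in WT, at 3.23, 3.95 and 3.39 CPM in rrp6Δ and at 5.63, 4.68, 4.58 and 3.24 CPM in rtr1Δ rrp6Δ cells. Both deletion genotypes lay above every WT library, and they overlapped each other. It rose by 1.41 ± 0.34 on the log2 scale in rrp6Δ (edgeR adjusted p = 0.00336) and by 1.76 ± 0.32 in rtr1Δ rrp6Δ cells (edgeR adjusted p = 0.00044). Opposite RPS26B, the other copy, the antisense RNA was at 1.17, 1.54, 0.63 and 0.31 CPM in WT, at 4.88, 3.69 and 2.62 CPM in rrp6Δ and at 4.94, 3.22, 3.55 and 2.56 CPM in rtr1Δ rrp6Δ cells. Here too no deletion library overlapped WT, and the rise was 2.05 ± 0.41 (edgeR adjusted p = 0.000884) and 1.98 ± 0.39 (edgeR adjusted p = 0.000821). The sense RNA stayed far above it, at 991 times the antisense CPM in WT, 193 times in rrp6Δ and 204 times in rtr1Δ rrp6Δ cells.

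The RNA opposite RPS19A was at 0.25, 0.39, 0.06 and 0.06 CPM in WT, at 1.04, 1.44 and 1.09 CPM in rrp6Δ and at 0.73, 0.60, 0.75 and 0.80 CPM in rtr1Δ rrp6Δ cells. None of the 3 genotypes overlapped with another, though the WT values rested on 2 to 12 counts. It rose by 2.67 ± 0.42 in rrp6Δ (edgeR adjusted p = 0.000152) and by 1.95 ± 0.43 in rtr1Δ rrp6Δ cells (edgeR adjusted p = 0.00187), and the change between them was −0.72 ± 0.35 without a call (edgeR adjusted p = 0.463). Opposite RPS6B the change was 1.26 ± 0.62 in rrp6Δ cells (edgeR adjusted p = 0.0928, called with the replicate block) and 1.44 ± 0.57 in rtr1Δ rrp6Δ cells (edgeR adjusted p = 0.0482). Opposite RPS10A it was 0.17 ± 0.63 and 0.54 ± 0.58, without a call. Of the WT libraries, replicate 2 held the highest value in all 6 rows, at 1.02 CPM opposite RPS6B where the other WT libraries were at 0.18 to 0.25 CPM.

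**Figure D5:**
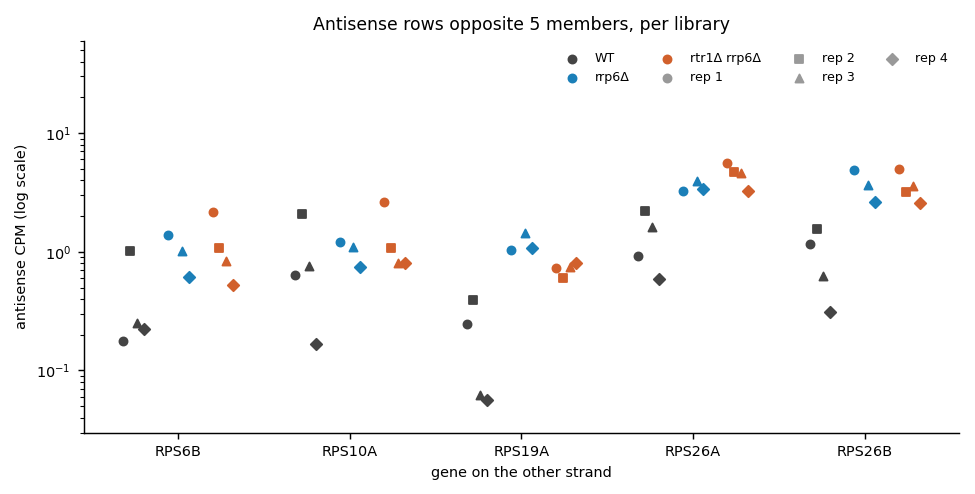
CPM of the antisense rows opposite 5 members in each library, on a log scale, with color for genotype and marker shape for replicate number. Rows opposite RPS19A, RPS26A and RPS26B lie higher in both deletion genotypes, with RPS26A at up to 5.63 CPM, and those opposite RPS6B and RPS10A overlap WT.

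Genes that act on the members were counted from lists of 16 regulators and 20 assembly and export factors, all measured. In rrp6Δ cells 5 regulators were called lower (ABF1 −0.50, REB1 −0.43, TOR1 −0.37, HMO1 −0.29 and DOT6 −0.65 on the log2 scale) and 1 higher (CRF1 0.53), with a list median of −0.31. In rtr1Δ rrp6Δ cells 4 were lower and 1 higher, with a median of −0.29. CRF1 encodes a corepressor of ribosomal protein genes and had a mean of 6.92 ± 0.91 CPM in the rrp6Δ libraries (SD, n = 3), where WT had 4.79 ± 1.04 (SD, n = 4). RAP1, FHL1 and IFH1 changed by −0.45, −0.33 and −0.24 in rrp6Δ cells without a call, and all 3 were called lower with the block in edgeR, which called 13 regulators lower in rrp6Δ and 14 in rtr1Δ rrp6Δ cells. As given above, 24.7% and 21.2% of all rows were called lower without the block, and 38.9% and 36.3% with it. Of the ORF-T rows 42.5% and 34.2% were called lower without the block, with medians of −0.29 and −0.22. With the block 3976 and 3533 of 5836 ORF-T rows were called lower. Scaled from ORF-T rows, the regulators had medians of −0.01 and −0.06 with 0 called lower and 1 higher in each comparison. The block added to that scaling called 4 higher and 0 lower in rrp6Δ, and 2 higher and 6 lower in rtr1Δ rrp6Δ cells. Of the assembly factors, HRR25 alone was called, lower in rrp6Δ cells at −0.37 (edgeR adjusted p = 0.0131). The block called 11 assembly factors lower in rrp6Δ cells, and 7 lower and 2 higher in rtr1Δ rrp6Δ cells. The direction turned with the scaling, since from ORF-T rows the medians of the assembly factors went from −0.15 and −0.07 to 0.15 and 0.16 with 0 called. The block with that scaling called 8 of them higher in rrp6Δ and 12 in rtr1Δ rrp6Δ cells, and 0 lower in both. In that fit their medians were 0.12 and 0.15, beside 0.27 and 0.20 over all rows. The ORF-T rows had medians of 0.003 and 0.006 with that scaling and no block. The shares of rows called in the fit are not given here, so these counts and those of the regulators stand without a background.

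Small subunit genes outside the 52 behaved less evenly. RPS14B, whose intron is bound by its own protein, rose by 1.02 ± 0.12 in rrp6Δ (edgeR) and by 0.77 in rtr1Δ rrp6Δ cells, and RPS22B changed by 0.01 and rose by 0.51, while RPS14A changed by −0.21 and −0.04 and RPS22A by −0.28 and −0.29 without a call. With the block RPS22A was called lower in both comparisons (edgeR adjusted p = 0.0219 and 0.0113). From ORF-T rows it was at 0.02 and −0.05, RPS14A was at 0.09 and 0.19, and RPS22B was called at 0.30 in rrp6Δ cells (edgeR adjusted p = 0.0426). ASC1, for a scaffold protein of the subunit head, was called lower at −0.51 and −0.40 on the log2 scale, and from ORF-T rows it was at −0.21 and −0.17 without a call (edgeR adjusted p = 0.213 and 0.279). Among the 81 RPL genes, 16 were called lower and 1 higher in rrp6Δ cells (median −0.26) and 8 lower and 1 higher in rtr1Δ rrp6Δ cells (median −0.13), beside the 24.7% and 21.2% of all rows called lower. Scaled from ORF-T rows, 2 RPL genes were lower and 2 higher in rrp6Δ (median 0.04), and 3 lower and 4 higher in rtr1Δ rrp6Δ cells (median 0.10), so that here too the medians turned.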

How the data were processed

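Total RNA was extracted with hot acid phenol, depleted of ribosomal RNA and made into TruSeq stranded libraries, with spike-in RNA that was not used here. Per the labels and the study's methods, the authors aligned reads to sacCer3 with STAR 2.5.2b and deposited counts per transcript from featureCounts (Subread 1.5.0). The legend of the deposited table calls the counts normalized, but they are whole numbers with unequal library totals, and they were treated as raw. Whether they had been scaled was not tested. Log2 fold changes and FDR values of the authors in the table were left aside. The series has 16 samples in 4 groups, of which 11 samples in 3 groups were analysed, and 1 per-sample column was left out because its header left the genotype open. The rtr1Δ libraries were not analysed here. Antisense rows are the reversed strand of coding rows, kept by the authors where changed in rrp6Δ cells.

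Counts of all 12670 rows were fitted in R 4.3.3 with edgeR 4.0.16 (filterByExpr, which removed 0 rows, TMM factors over all rows, group means of the 11 libraries, no covariate) and called at a Benjamini-Hochberg adjusted p of at most 0.05. CPM used scaled library sizes. The correlations of same-numbered libraries used log2 CPM with a prior count of 2, and the deviations, SDs and same-day differences used none. Same-numbered libraries deviated together from their genotype means (r of 0.266 to 0.841 over 10 pairs, against −0.692 to 0.382 over 30 other pairs) and, by the study's methods, shared a growth day, so a fit with the replicate block is given where it changed a count. DESeq2 1.42.0, other scalings, other filters and leaving out libraries were the alternatives. Scripts were tested on simulated data. Genes named are those with the 4 largest and smallest changes per comparison, the 4 most changed pairs, the 3 highest and 3 lowest genes, the single-copy genes, and antisense rows with the 3 largest and smallest changes. Other called members, and listed genes given with values, were named after their values were seen. A few members enter the counts and medians but are not reported here by name. Introns, promoters and coding lengths came from RefSeq with Biopython 1.88 and Python 3.11.15. The members and lists were chosen with earlier results of these data known.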

Additional observations from a re-analysis of the deposited data

Results flagged for a closer look

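Among 146 groups of 4 libraries, 5 held a library whose gap to the nearest other, divided by the range of the group, passed Dixon's critical value of 0.829. Chance gives about 1 in 20, or 7.3 of these groups.

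RPS9A stood at 203 CPM in WT replicate 1, where the other WT libraries were at 163 to 169 CPM. The antisense RNA opposite RPS6B stood at 1.02 CPM in WT replicate 2, against 0.18 to 0.25 CPM in the others. Opposite RPS10A it stood at 2.62 CPM in rtr1Δ rrp6Δ replicate 1, against 0.80 to 1.07 CPM. The log2 ratio of RPS1A to RPS1B was −0.33 in rtr1Δ rrp6Δ replicate 1, against −0.51 to −0.50. That of RPS11A to RPS11B was 0.0940 in rtr1Δ rrp6Δ replicate 2, against −0.08 to −0.05.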

How the results depend on the processing

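In rrp6Δ against WT cells, where 8 members were called lower, the count was 38 with the replicate block, 39 with RLE scaling, 42 with DESeq2, 51 with the block and RLE, 13 without replicate 1 in the block fit, 5 when only WT and rrp6Δ libraries were fitted, 3 with the block and upper-quartile scaling, 1 with the block and ORF-T scaling (which also called 1 higher), and 0 with upper-quartile scaling, with ORF-T scaling and with ORF-T scaling that left out ribosomal protein genes. The median of −0.27 moved to 0.0307 with ORF-T scaling, 0.0343 with the block added and 0.0210 where ribosomal protein genes were left out of it. In rtr1Δ rrp6Δ cells, where 4 were called lower, the count was 19 with the block, 22 with RLE, 24 with DESeq2, 44 with the block and RLE, 20 without replicate 1 in the block fit, 8 without every replicate 1, 9 when only the compared libraries were fitted, 1 with the block and ORF-T scaling, and 0 with the other scalings named. Calls of higher level numbered 1 with the block, 1 with ORF-T scaling, 1 with scaling outside ribosomal protein genes, 2 with the block and ORF-T scaling, 1 with the block and upper-quartile scaling and 1 without replicate 1 in the block fit. The median there was 0.0621 with ORF-T scaling. The cause of these moves between settings was not tested. Beside the members, 3976 and 3533 of 5836 ORF-T rows were called lower with the block, and 3518 and 3102 with RLE scaling. For DESeq2 and for the block beside another scaling the shares of rows called are not given here. Those counts therefore do not set the members apart from other rows.

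RPS26A in rtr1Δ rrp6Δ cells, uncalled without the block, turned to 0.22 with the block and ORF-T scaling. The members' mean share in rrp6Δ cells was 104% of WT when taken of ORF-T counts outside ribosomal proteins. Leaving out 1 library gave 2 to 43 members lower in rrp6Δ cells, 1 to 29 in rtr1Δ rrp6Δ cells, 8 to 30 called for day and 8 to 40 higher in replicate 1, while without any replicate 1 the day test called 1. Ratios of copies did not overlap in 1 to 4 pairs between rrp6Δ and WT, 6 to 9 between rtr1Δ rrp6Δ and WT and 2 to 4 (1 with all libraries) between the deletion genotypes, with fewer libraries compared each time. The calls between the deletion genotypes stayed at 0 under every setting here, apart from the block fits without 1 library given with the results. Scaling from ORF-T rows outside ribosomal protein genes, leaving out every replicate 1, the block beside another scaling, single libraries left out of the day test and of the antisense counts, and the block for antisense counts were chosen after seeing the data. Depth was no limit for the members, whose lowest count was 1603, but antisense rows rested on as few as 2 counts in WT.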
